A study of Mus musculus with 6 samples.

Results

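The 10 genes described here encode enzymes that write, read or remove methyl groups on cytosine and the catalytic and core proteins of Polycomb repressive complex 2 (PRC2). They were taken from the table of normalized counts by symbol (Dnmt1, Dnmt3a, Dnmt3b, Uhrf1, Tet1, Tet2, Tet3, Ezh1, Ezh2 and Eed). All 10 were found among its 25067 rows, and 9 of the 10 reached the mean normalized count of 10 that was required for testing. The libraries came from colonic organoids of C57BL/6 mice, 8 weeks old, all of the genotype Prkcif/fPrkczf/f;Villin-CreERT2, in which both atypical protein kinase C (aPKC) genes are flanked by loxP sites and Cre is driven by the epithelial Villin promoter and switched on by tamoxifen. Crypts had been grown with B27, WNT3A, EGF, Noggin and R-spondin 1. Organoids received vehicle (ethanol, 3 libraries, described as wild type in the labels although they carry the same alleles) or 4-OH-Tamoxifen (4-OHT, 3 libraries) for 3 days before RNA extraction. The labels do not say whether the libraries of a group came from separate mice or cultures, so the p-values measure the spread between these libraries, which may be technical. No library received 4-OHT without the floxed alleles or without Cre, so loss of aPKC, Cre activity and 4-OHT cannot be told apart in any comparison below.

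Cytosine methylation at CpG sites is copied after each round of DNA replication by Dnmt1, which is guided to newly copied, hemimethylated DNA by Uhrf1. Dnmt3a and Dnmt3b place methyl groups on unmethylated sites, and the Tet enzymes oxidise methylcytosine, which opens the way to its removal. PRC2 methylates lysine 27 of histone H3 through Ezh2 or Ezh1, with Eed as a core subunit that binds the finished mark. In the intestinal crypt, Dnmt1, Uhrf1 and Ezh2 are known as genes of dividing cells, and PRC2 is known for silencing the cell cycle inhibitors of the Cdkn2a locus.

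The libraries held between 15804709 and 26957612 reads on genes. Prkcz had a normalized count of 880, 904 and 954 in the vehicle libraries and 287, 265 and 290 in the 4-OHT libraries (replicates 1, 2 and 3 in each case), while Prkci had 3603, 3526 and 3430 against 2869, 3105 and 3089. Both targeted genes were thus lower in every 4-OHT library than in every vehicle library, with log2 differences of -1.70 for Prkcz and -0.22 for Prkci. The deleted exons were not looked at separately, so these values do not give the share of recombined cells. The 12 colonic epithelial markers were all present, with a summed level of 14499 to 14965 RPM (reads scaled to the library total) in vehicle and 18379 to 19610 in 4-OHT libraries. Transcripts of other cells were low but uneven. The 6 smooth muscle markers summed to 0.15 to 0.70 RPM in vehicle libraries, 0.73 in 4-OHT replicate 1, and 3.22 and 8.18 in 4-OHT replicates 2 and 3, and the 6 fibroblast markers reached 9.71 in 4-OHT replicate 3 against at most 1.08 in each other library. The 8 leukocyte markers summed to 0.70 to 0.83 in vehicle, 1.04 in 4-OHT replicate 1, and 3.06 and 3.69 in 4-OHT replicates 2 and 3. The 10 markers of Paneth cells and ileum summed to 70.3 to 88.5 in vehicle and to 83.1, 118 and 126 in 4-OHT replicates 1, 2 and 3. Ang4, Lyz1 and Mmp7 had at least 147 reads in every library, and Mmp7 fell (log2 difference -0.28). Defa24 had 1, 6 and 3 reads in vehicle and 4, 145 and 176 in 4-OHT replicates 1, 2 and 3. Defa30 had 0, 0 and 0 against 0, 78 and 117 reads in the same order. Fabp6 had 2, 3 and 2 against 4, 120 and 34, and Mptx2 0, 0 and 0 against 1, 24 and 36. The 4 endothelial markers found lay between 1.66 and 2.86 in all 6 libraries. Because of 4-OHT replicates 2 and 3, the 5 genes that fell are also given for 4-OHT replicate 1 alone. The part of these transcripts in the results was not tested.

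As sequence context for the genes that moved together, the 250 bases upstream of the annotated start sites of all 10 genes (15 windows in the RefSeq promoter table, build GRCm38.p6) were searched on both strands for the 7-letter consensus of E2F factors, the regulators of S phase genes, spelled as TTCCCGC or TTCGCGC or TTGCCGC or TTGGCGC. The deposited counts were made on GRCm39, so these positions belong to the sequences only. A match was found in 3 of the 15 windows, which belong to Dnmt1 and Uhrf1. A match was present in 7.9% of all 32851 windows, in 12 of 24 windows of replication genes and in 3 of 16 windows of mitosis genes. The windows are unlike in base composition, with a median of 17 CpG sites in those of the members and 6 over all windows, and the motif itself is rich in C and G. The 4 matches are printed with 10 bases on each side, 5′ to 3′ on the strand of the gene, with the matching letters in capitals. The printed Dnmt1 stretches lie at chr9:20952826-20952852 and chr9:20952765-20952791 (minus strand). Their matches, at 20952836-20952842 and 20952775-20952781, overlap annotated exons of other Dnmt1 transcripts. The printed Uhrf1 stretches lie at chr17:56303279-56303305 and chr17:56304119-56304145 (plus strand). The first match (56303289-56303295) lies upstream of the gene body, and the second (56304129-56304135) inside the gene body but outside its annotated exons.
Dnmt1 match, 213 bases upstream: gtttccgcgcGCGCGAAaaagccgggg
Dnmt1 match, 152 bases upstream: caagatgccaGCGCGAAcagctccagc
Uhrf1 match, 42 bases upstream: gctttctcgcTTCCCGCcacagcgcca
Uhrf1 match, 178 bases upstream: cgagtcgggtTTCGCGCgcccaggcgt

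Whole windows are shown for 1 gene that fell and 1 that did not pass the test, as examples only. The windows of Tet2, Tet3 and Ezh2, which also fell, hold no match, nor do the other windows of Dnmt1. Whether the matches bear on the falls was not tested. The Uhrf1 window at chr17:56304063-56304312 (plus strand, build GRCm38.p6) holds 30 CpG sites, more than 94.1% of all windows, and 1 match in capitals. The Ezh1 window at chr11:101226464-101226713 (minus strand) holds 14 CpG sites, more than 70.6% of all windows, and no match. The absence of a match says only that these letters are not in this window.
Uhrf1 window: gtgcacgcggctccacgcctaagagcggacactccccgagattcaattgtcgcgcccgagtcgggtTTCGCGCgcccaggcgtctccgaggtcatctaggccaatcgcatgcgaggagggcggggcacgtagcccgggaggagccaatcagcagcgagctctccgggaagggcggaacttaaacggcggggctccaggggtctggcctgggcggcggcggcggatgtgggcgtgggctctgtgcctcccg
Ezh1 window: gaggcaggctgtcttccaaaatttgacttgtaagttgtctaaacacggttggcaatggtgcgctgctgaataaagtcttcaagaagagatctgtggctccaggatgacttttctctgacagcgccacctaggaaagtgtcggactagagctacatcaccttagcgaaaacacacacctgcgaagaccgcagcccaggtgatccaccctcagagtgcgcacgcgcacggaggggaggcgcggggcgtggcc

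Of the 9 tested genes, 5 were lower in 4-OHT organoids (Dnmt1, Uhrf1, Tet2, Ezh2 and Tet3), 0 were higher and 4 did not pass the test (Dnmt3a, Dnmt3b, Ezh1 and Eed), by limma on log2(normalized count + 1) with a Benjamini-Hochberg adjusted p-value under 0.05 over all 13210 tested rows. Across those rows 43.6% passed the test, 22.7% as higher and 21.0% as lower, so the 5 lower genes are 55.6% of the members tested against 21.0% of all genes. The median difference over the 9 genes was -0.21 on the log2 scale and over all tested rows -0.01. The same 5 genes had 3 values that lay below all 3 vehicle values, a pattern seen in 25.3% of tested rows (52.1% in either direction). A bulk sample cannot tell fewer cells of a type from less RNA per cell, and this applies to each difference below.

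**Figure D1:**
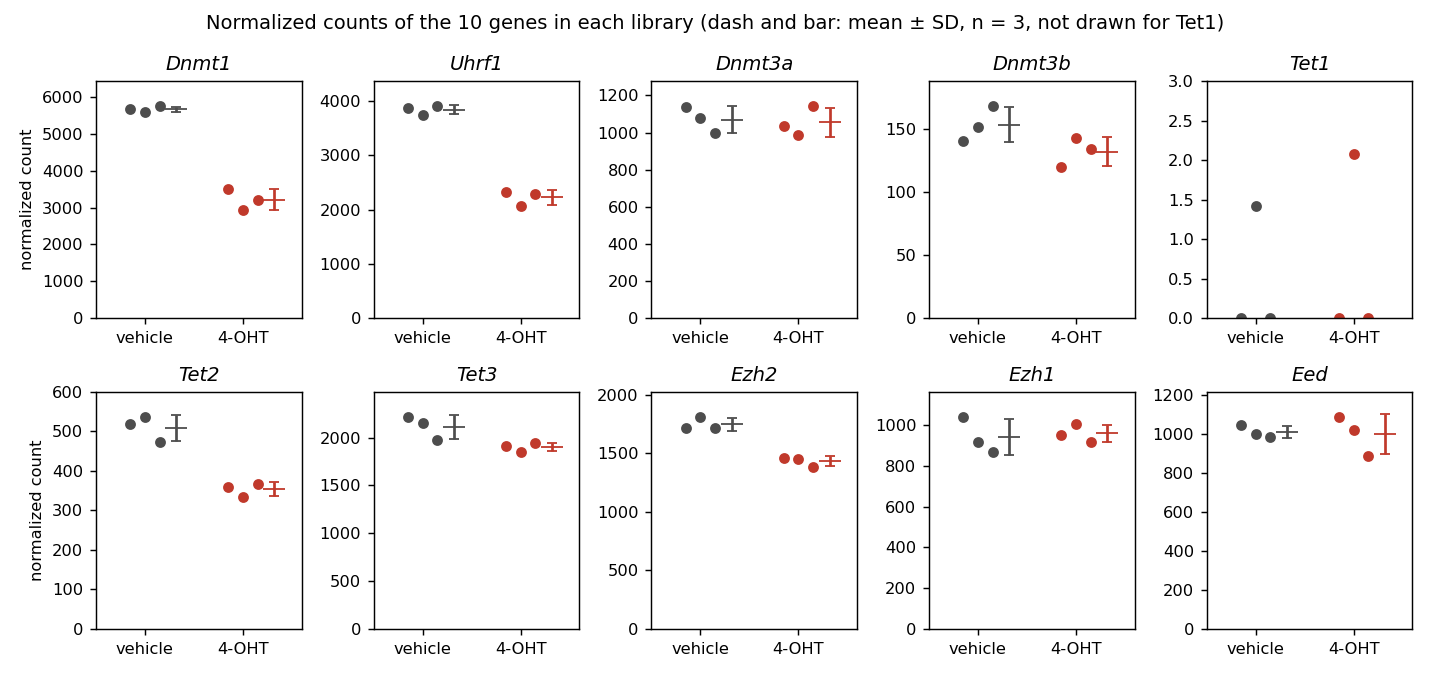
Normalized count (vertical axis, from 0) of each of the 10 genes in the 3 vehicle (grey) and 3 4-OHT (red) libraries, with mean and SD beside the points except for Tet1. Dnmt1, Uhrf1, Tet2, Tet3 and Ezh2 are lower in all 4-OHT libraries, the other panels overlap, and Tet1 does not exceed 2.07.

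The maintenance pair fell most. Dnmt1 had normalized counts of 5663, 5593 and 5744 in vehicle replicates 1, 2 and 3 and of 3496, 2930 and 3206 in 4-OHT replicates 1, 2 and 3. The 4-OHT libraries lay far below the vehicle libraries, and 4-OHT replicate 1 was the highest of its group. The means were 5667 ± 75.6 (SD, n = 3) in vehicle and 3211 ± 283 (SD, n = 3) in 4-OHT organoids, a log2 difference of -0.82 (SE 0.05, limma adjusted p = 4.3e-10), and 414 of the 13210 tested rows had a lower difference. These values rest on 2816 to 7885 reads per library. In 4-OHT replicate 1 alone against the vehicle libraries the log2 difference was -0.70 (limma adjusted p = 9.9e-06, the highest over 16 alternatives, the lowest being 5.4e-42 by DESeq2).

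Uhrf1, which reads hemimethylated CpG sites and recruits Dnmt1, had 3873, 3750 and 3903 in the vehicle libraries and 2320, 2071 and 2284 in the 4-OHT libraries. The groups did not overlap. The vehicle mean was 3842 ± 80.8 (SD, n = 3) and the 4-OHT mean 2225 ± 135 (SD, n = 3), a log2 difference of -0.79 (SE 0.05, limma adjusted p = 3.2e-10). In 4-OHT replicate 1 alone it was -0.73. The log2 ratio of Uhrf1 to Dnmt1, formed after the values were seen, ran from -0.58 to -0.55 in vehicle and from -0.59 to -0.49 in 4-OHT libraries. The groups overlapped, with a difference of 0.03 (exact permutation test, two-sided, p = 0.40). The smallest p that 3 against 3 libraries allow in this exact test is 0.10, so it cannot pass 0.05 and shows no stability.

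The de novo enzymes did not pass the test. Dnmt3a had 1138, 1076 and 996 in vehicle and 1037, 989 and 1141 in 4-OHT libraries, and the groups overlapped throughout. The log2 difference was -0.02 (95% interval -0.16 to 0.12, limma adjusted p = 0.83), an interval that leaves out a fall of the size seen for Dnmt1. Its antisense transcript Dnmt3aos had 2 reads in vehicle replicate 2 and 0 in each of the other libraries. Dnmt3b was the least abundant of the 9 tested members, with 141, 152 and 168 in vehicle and 120, 143 and 134 in 4-OHT libraries. Only vehicle replicate 1 overlapped the 4-OHT range. The log2 difference of -0.21 had a 95% interval from -0.49 to 0.06 (limma adjusted p = 0.21) on 116 to 214 reads per library, so neither no change nor a fall as large as that of Ezh2 could be set aside at this depth. The antisense transcript Dnmt3bos had 2, 21 and 7 reads in vehicle and 6, 3 and 2 in 4-OHT replicates 1, 2 and 3. Whether counting used the strand is not stated, so reads from Dnmt3b and Dnmt3bos may not have been told apart, and isoforms of Dnmt3a and Dnmt3b were not separated.

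The ratio of Dnmt3a to Dnmt1 within libraries was a planned comparison. Like the other ratios here, its mean difference restates the log2 differences of both genes and is no separate evidence. The log2 ratio of Dnmt3a to Dnmt1 was -2.31, -2.38 and -2.53 in vehicle and -1.75, -1.57 and -1.49 in 4-OHT libraries. All 4-OHT libraries lay above all vehicle libraries, with a difference of 0.80 (exact permutation p = 0.10, the smallest possible here, and 0.17 after adjustment over 5 ratios). In linear terms the normalized count of Dnmt3a was 0.189 ± 0.014 (SD, n = 3) of that of Dnmt1 in vehicle and 0.330 ± 0.030 (SD, n = 3) in 4-OHT organoids. The log2 ratio of Dnmt3b to Dnmt3a overlapped between the groups, from -3.01 to -2.57 in vehicle and from -3.11 to -2.79 in 4-OHT libraries (difference -0.19, exact permutation p = 0.30).

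**Figure D2:**
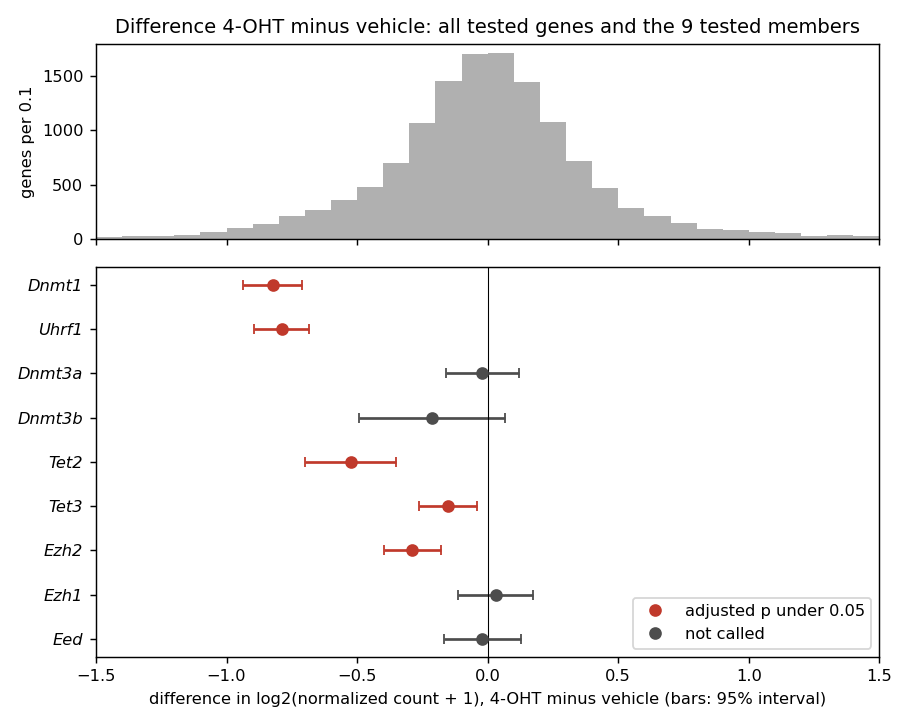
Upper panel, number of tested genes per 0.1 of log2 difference (horizontal axis, 4-OHT minus vehicle), with 117 of 13210 genes outside the range drawn. Lower panel, the 9 tested members with their 95% intervals, red where the adjusted p-value was under 0.05; Dnmt1 (-0.82) and Uhrf1 (-0.79) lie farthest to the left.

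The 3 Tet genes differed in level and in response. Tet1, the family member best known from embryonic stem cells, had 2 reads in vehicle replicate 2, 2 reads in 4-OHT replicate 2 and 0 in each of the other libraries. This is under the 3 reads per library taken as the smallest detectable number, so no fold is given. Tet2 had 518, 536 and 472 in vehicle and 358, 334 and 368 in 4-OHT libraries. The groups lay well apart, and the means were 509 ± 33.0 (SD, n = 3) in vehicle and 353 ± 17.5 (SD, n = 3) in 4-OHT, a log2 difference of -0.52 (SE 0.08, limma adjusted p = 3.7e-05). In 4-OHT replicate 1 alone the difference was -0.50 (limma adjusted p = 0.0059, the highest over 16 alternatives, the lowest being 1.2e-06 by DESeq2).

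Tet3 was the most abundant Tet gene, with 2214, 2148 and 1976 in vehicle and 1913, 1850 and 1939 in 4-OHT libraries. The groups did not overlap, but vehicle replicate 3 and 4-OHT replicate 3 came close. The log2 difference of -0.15 (SE 0.05, limma adjusted p = 0.027) was the smallest among the 5 genes that fell. It did not pass the test without vehicle replicate 1 (-0.12), without vehicle replicate 2 (-0.14), without 4-OHT replicate 2 (-0.13) or in 4-OHT replicate 1 alone (-0.14), with limma adjusted p-values from 0.077 to 0.18 in these fits and from 0.0057 to 0.18 over all 16 alternatives. The log2 ratio of Tet2 to Tet3, formed after the values were seen because Tet1 was too low for a ratio, was -2.10, -2.002 and -2.07 in vehicle and -2.42, -2.47 and -2.40 in 4-OHT libraries. The groups were apart by -0.37 (exact permutation p = 0.10, the smallest possible, and 0.17 after adjustment over 5 ratios).

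Among the PRC2 genes, Ezh2 fell and its alternative Ezh1 did not pass the test. Ezh2, the catalytic subunit of dividing cells, had 1717, 1810 and 1718 in vehicle and 1462, 1451 and 1382 in 4-OHT libraries, with no overlap. The means were 1748 ± 53.3 (SD, n = 3) in vehicle and 1432 ± 43.4 (SD, n = 3) in 4-OHT organoids, a log2 difference of -0.29 (SE 0.05, limma adjusted p = 1.6e-04). In 4-OHT replicate 1 alone it was -0.26 (limma adjusted p = 0.015, the highest over 16 alternatives, the lowest being 1.1e-05 by DESeq2). Ezh1, the catalytic subunit known from resting and differentiated cells, had 1039, 916 and 868 in vehicle and 954, 1005 and 919 in 4-OHT libraries, and the groups overlapped. Its log2 difference was 0.03 (95% interval -0.11 to 0.18, limma adjusted p = 0.75). Eed had 1046, 999 and 985 in vehicle and 1088, 1023 and 887 in 4-OHT libraries, where the 3 treated values spread more widely than the vehicle values. The log2 difference was -0.02 (95% interval -0.17 to 0.13, limma adjusted p = 0.84).

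The log2 ratio of Ezh1 to Ezh2 was -0.72, -0.98 and -0.98 in vehicle and -0.62, -0.53 and -0.59 in 4-OHT libraries. All 4-OHT ratios were higher, although vehicle replicate 1 was nearer to them than to the other vehicle libraries. The difference was 0.32 (exact permutation p = 0.10, the smallest possible, and 0.17 after adjustment over 5 ratios). In linear terms the count of Ezh1 was 0.539 ± 0.057 (SD, n = 3) of that of Ezh2 in vehicle and 0.670 ± 0.021 (SD, n = 3) in 4-OHT organoids.

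**Figure D3:**
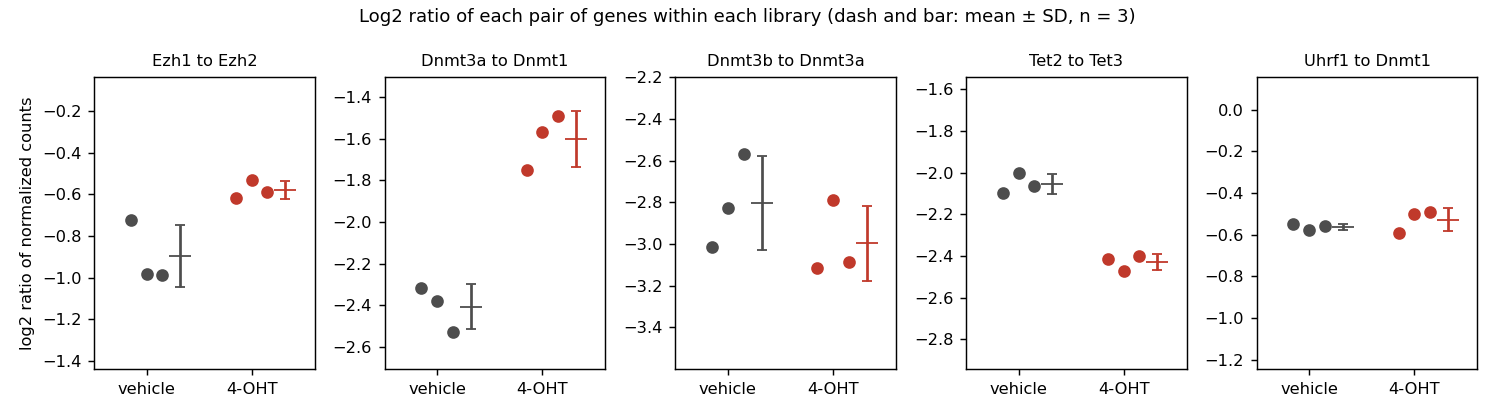
Log2 ratio of normalized counts (vertical axis, same span of 1.4 in each panel) for 5 pairs of genes in the 3 vehicle (grey) and 3 4-OHT (red) libraries, with mean and SD. Ezh1 to Ezh2, Dnmt3a to Dnmt1 and Tet2 to Tet3 differ without overlap, and Dnmt3b to Dnmt3a and Uhrf1 to Dnmt1 overlap.

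To compare levels between genes, normalized counts were divided by the length of the longest principal transcript in GENCODE vM21 (build GRCm38). Per kilobase, Uhrf1 (1071 ± 22.5, SD, n = 3) and Dnmt1 (1056 ± 14.1) were highest in vehicle organoids, and their ranges overlapped. Within each vehicle library Uhrf1 was slightly above Dnmt1 (1080 against 1055, 1046 against 1042 and 1088 against 1070), but not in 4-OHT replicate 1 (647 against 651). Ezh2 (627 ± 19.13), Eed (489 ± 15.4), Tet3 (355 ± 20.7), Ezh1 (224 ± 21.1), Dnmt3a (111 ± 7.34), Tet2 (55.4 ± 3.60) and Dnmt3b (35.6 ± 3.19) followed, each below the one before in all 3 vehicle libraries. In 4-OHT organoids the order of the means was kept, but the upper end was compressed. Uhrf1 was at 620 ± 37.5, Dnmt1 at 598 ± 52.7, Ezh2 at 514 ± 15.6 and Eed at 483 ± 49.7 (SD, n = 3 each), and Eed overlapped Ezh2. Neighbours in this order depend on the transcript chosen, since the deposited values do not say which isoforms were made.

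Genes of dividing cells moved in the same comparison. Of 30 replication genes, among them the Mcm helicase subunits and the DNA polymerases, 29 fell and 0 rose, with a median log2 difference of -0.62, between -0.90 (Pole) and -0.16 (Gins4, limma adjusted p = 0.074). Pold1 (-0.82), Cdc45 (-0.80) and Tk1 (-0.79) followed Pole. All 20 mitosis genes fell, with a median of -0.66, led by Mki67 (-1.02), Cenpf (-0.93), Top2a (-0.82) and Kif11 (-0.79). The shares of all tested genes were 21.0% lower and 22.7% higher. The mean log2 level of the replication genes was 0.54, 0.64 and 0.60 below the vehicle mean in 4-OHT replicates 1, 2 and 3, so 4-OHT replicate 2 was lowest for this list as it was for Dnmt1 (-0.95, against -0.70 and -0.82 in replicates 1 and 3) and Uhrf1 (-0.89, against -0.73 and -0.75). The part of this shift in the members' differences was not tested.

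The mean log2 level of the 30 replication genes fell by 0.59, and subtracting it within each library adds the same shift to every gene. Values on this scale thus restate the differences above. A gene that did not fall, or that fell by less than this mean, comes out higher by construction. On this scale Dnmt1 had a difference of -0.23, Uhrf1 of -0.20 and Tet2 of 0.07, and the groups overlapped for Tet2. Ezh2 (0.30) and Tet3 (0.44), which fell by less than this mean, came out higher without overlap. The differences of Dnmt1 and Uhrf1 before this step lay within the range of the single replication genes but near its lower end. Only Pole (-0.90) and Pold1 (-0.82) were below Dnmt1, and the list median was -0.62. With the mitosis genes in place of the replication genes the values were -0.13 for Dnmt1, -0.09 for Uhrf1 and 0.17 for Tet2.

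The tested rows whose 6 values, taken as log2 differences from the vehicle mean, were closest to those of a member were listed without regard to function. For Dnmt1 these were Ncapd2, Bub1b and Cdca2, with root mean square differences of 0.019, 0.025 and 0.028 on the log2 scale over 6 libraries. For Uhrf1 they were Fads1 (0.025), Bub1b (0.029) and Slc7a1 (0.031). For Ezh2 they were Dll1 (0.024), Aldh9a1 (0.025) and Zfp810 (0.029), and for Ezh1, the member with the highest difference, Kansl2 (0.030), Mau2 (0.035) and Fam122a (0.038).

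Of 11 tested PRC2 subunits outside the members, 5 fell, 1 rose and 5 did not pass the test, with a median log2 difference of -0.15 (2 rose without 4-OHT replicate 1). Among all tested genes 21.0% were lower and 22.7% higher. Phf19, an accessory subunit that binds methylated lysine 36 of histone H3, had the largest fall (mean normalized count 275 to 134, log2 difference -1.03, SE 0.11, limma adjusted p = 3.8e-07). Suz12, the core partner of Eed, went from 2766 to 2169 (-0.35), and Jarid2 (-0.36) and Lcor (-0.30) also fell. Phf1, a paralog of Phf19, rose from 175 to 233 (0.41, SE 0.11, limma adjusted p = 0.0050). The accessory subunits Mtf2 (0.03), Aebp2 (0.11) and Epop (0.08) and the histone chaperone Rbbp4 (0.05) did not pass the test, while its paralog Rbbp7 fell from 4773 to 4206 (-0.18, limma adjusted p = 0.0019). All 3 demethylases of the PRC2 mark, Kdm6a (-0.13), Kdm6b (-0.08) and Uty (0.13), also missed the threshold.

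Of the 10 tested cofactors of DNA methylation, 6 fell, 0 rose and 4 did not pass, with a median of -0.61 (1 rose without 4-OHT replicate 1). The shares of all tested genes were 21.0% lower and 22.7% higher. Cdca7l fell from 612 to 314 (log2 difference -0.96) and Cdca7 from 2684 to 1701 (-0.66). Hells, the chromatin remodeller that works with Cdca7, fell from 1453 to 960 (-0.60, SE 0.07). Trdmt1 is counted among the 10 although it is a methyltransferase of transfer RNA and not a cofactor of DNA methylation. It fell by 0.62 on the log2 scale (limma adjusted p = 0.030) on 30 to 75 reads per library. Lig1 (-0.73) and Pclaf (-0.66), which join Uhrf1 or Dnmt1 at replication forks, are also genes of DNA replication. Uhrf2, the paralog of Uhrf1, did not pass (1819 to 1931, log2 difference 0.08, limma adjusted p = 0.24), nor did Usp7 (-0.10, limma adjusted p = 0.065), a deubiquitinase of Uhrf1. Dnmt3l, the catalytically inactive cofactor of the de novo enzymes, had 1 read in vehicle replicate 1 and 0 in each of the other libraries.

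Of 10 tested proteins of the families that bind methylated CpG sites, 3 fell and 2 rose (1 in 4-OHT replicate 1 alone), with a median of -0.0015, shares near those of all tested genes (21.0% lower and 22.7% higher). Mbd4, which is also a DNA glycosylase, fell from 150 to 76.8 (-0.99, SE 0.18, limma adjusted p = 1.2e-04), Mbd6 by 0.36 and Mbd3 by 0.20 on the log2 scale. Zbtb38 rose from 952 to 1405 (0.56) and Zbtb4 from 833 to 1058 (0.34). Mbd1 (0.08) did not pass the test.

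Downstream of the Tet enzymes, 5 of 14 tested genes of active demethylation and base excision fell and 3 rose, with a median of -0.10. Over all tested genes 21.0% were lower and 22.7% higher. Tdg, the glycosylase that removes the oxidised bases, did not pass the test (2116 to 2088, log2 difference -0.02, limma adjusted p = 0.78). Neil3 (-0.89), Parp1 (-0.59), Ogt (-0.56), a partner of Tet proteins, and Xrcc1 (-0.33) fell. Gadd45b rose from 472 to 761 (0.68), Polb by 0.37 and Gadd45a by 0.31. Gadd45a is also a target of p53.

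PRC1, the complex that reads the PRC2 mark or acts beside it, had 7 of 22 tested subunits lower and 4 higher, with a median of -0.05. The 11 that passed the test are a share close to the 43.6% of all tested genes. Pcgf5 and Bcor fell by 0.52 and 0.51, and L3mbtl2 by 0.36 on the log2 scale. Phc2 (1947 to 2841, log2 difference 0.55), Scmh1 (0.52), Rnf2 (0.31) and Pcgf3 (0.27) rose. Bmi1 (0.06) and Ring1 (0.0049) did not pass the test. In 4-OHT replicate 1 alone, 3 of these subunits were lower and 3 higher.

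**Figure D4:**
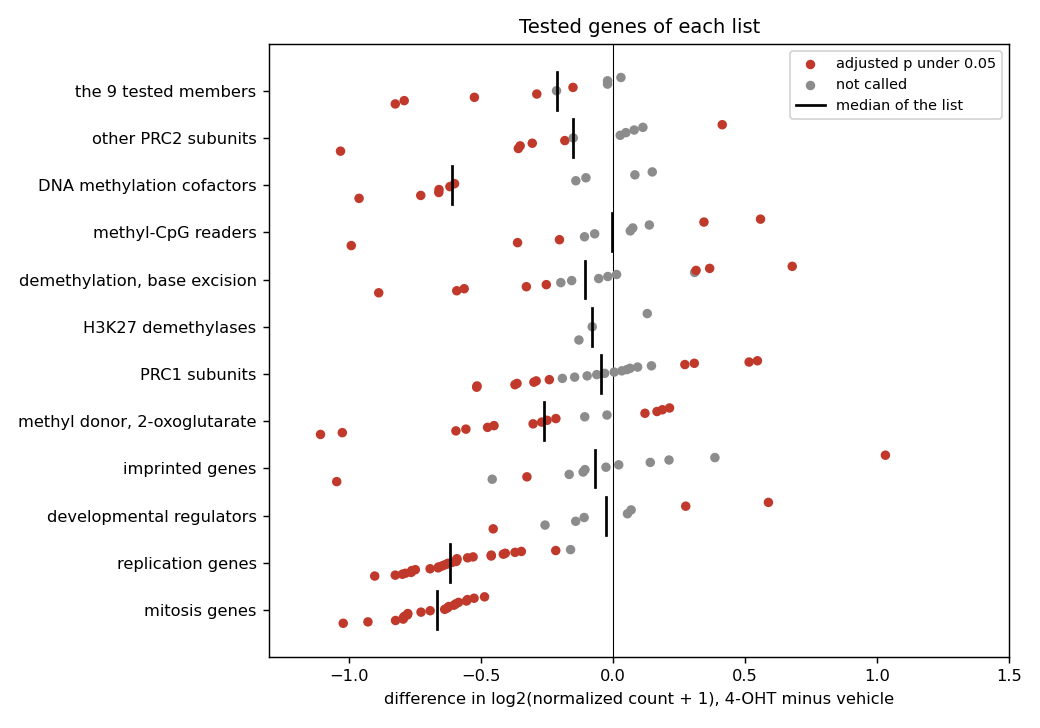
Log2 difference (horizontal axis, 4-OHT minus vehicle) of each tested gene of the lists named on the vertical axis, red where the adjusted p-value was under 0.05, with the list's median as a black line. The median is -0.61 for the DNA methylation cofactors, -0.62 for the replication genes and -0.66 for the mitosis genes, and between -0.26 and -0.0015 for the members and the other lists drawn.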

How the data were processed

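RNA-seq libraries of 3 vehicle and 3 4-OHT colonic organoid samples were grouped by the treatment label. The deposited values are a normalized count signal: the authors divided reads per gene by 1 size factor per library. The submitters' processing notes name STAR, DESeq2 and the build GRCm39 (mm39); the counting tool and annotation are not given in the sources used here. Dividing by the smallest step of each library gave whole reads (tolerance 0.1 reads) for 100% of values, so a read table could be rebuilt (15804709 to 26957612 per library). The floor of 3 reads covers counting error only, and 95% intervals come from the limma fit.

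Genes under a mean of 10 normalized counts were left out, and the others compared on log2(value + 1) with limma-trend (limma 3.58.1, R 4.3.3) and Benjamini-Hochberg adjustment at 0.05, without a replicate block. A fold change on this scale understates the change of low genes. Ratios within a library were compared by exact permutation, two-sided. On simulated data with 200 of 13210 genes changed by 1 on the log2 scale, limma recovered 171 with 7 false calls. In the real data 43.6% of tested rows passed the test and the falls of the members were smaller than 1. The simulated rates therefore do not describe recovery of falls as small as those of Tet3 or Ezh2. Same-group libraries differed by 3.49 to 6.44 times counting variance (chi-square per degree of freedom), so none is a copy. Alternatives were pseudocounts of 0.1 and 10, no filter, a minimum of 50, TMM, leaving out each library in turn, the replicate block, quantile normalization, 4-OHT replicate 1 alone, and edgeR 4.0.16 and DESeq2 1.42.0 on recovered reads. The members and lists were chosen with earlier results of these data known. All members were named, and from each list the called rows with the largest rises and falls (up to 4 each), all genes of lists of 3, and, chosen after their values were seen, Hells, Trdmt1, Rbbp7 and some rows that missed the threshold. Some genes that this rule names are not reported here. Listed genes without a row, among them Dnmt3c and Ezhip, were not analysed here, and 4 symbols stand on more than 1 row.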

Additional observations from a re-analysis of the deposited data

How the results depend on the processing

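Dnmt1, Uhrf1, Tet2 and Ezh2 fell past the threshold in all 16 alternatives, and Tet3 in 12 of 16. With 4-OHT replicate 1 alone, whose spread is assumed to be that of the vehicle libraries, 3569 genes changed (1858 higher, 1711 lower) in place of 5765; this fit has fewer samples. With each library left out the counts were 4939 to 5630 (2614 to 2905 higher, 2315 to 2725 lower), and 4 to 5 of the members were lower. edgeR called 5780 genes and DESeq2 5208, each with 5 members lower. Directions reversed for members that passed no test: with a library left out Dnmt3a was between -0.077 and 0.025, Ezh1 between -0.026 and 0.10 and Eed between -0.084 and 0.063, and Eed was 0.11 in 4-OHT replicate 1 alone. Tet2 relative to the replication genes was between -0.020 (without vehicle replicate 3) and 0.12 with a library left out. The cause was not tested. No alternative moved the median of all genes by 0.1. The replicate block gave 5637 genes, 5 members lower and the same differences, and it changed no call of a member; same-numbered libraries had correlations of -0.01, 0.03 and -0.02 after group means were removed, so the numbers show no pairing. The Tet3 to Tet1 ratio was not run because Tet1 was at 0 in 4 libraries. Depth limits Dnmt3b and Tet1 most.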

Other observations

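Of 16 tested genes that supply the methyl donor or the Tet cofactor 2-oxoglutarate, 10 fell and 4 rose in 4-OHT organoids (limma adjusted p-value under 0.05), with a median log2 difference of -0.26. Among all tested genes 21.0% were lower and 22.7% higher. Shmt2 and Mthfd2, the mitochondrial enzymes that feed carbon from serine into the folate cycle, fell most, from mean normalized counts of 6601 to 3064 (-1.11, SE 0.05) and 2648 to 1303 (-1.02, SE 0.06). Mtr (-0.56), which remakes methionine, also fell. Mat2a, which makes S-adenosylmethionine, rose from 3824 to 4160 (0.12, SE 0.05, limma adjusted p = 0.039), as did Mat2b (0.17), Ahcyl2 (0.19) and Idh1 (0.21). Leaving out vehicle replicate 1, vehicle replicate 2 or 4-OHT replicate 3, or using 4-OHT replicate 1 alone, left 2 higher genes in each case.

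Genes whose regulation is known to involve DNA methylation or PRC2 were looked at in 3 lists. The tested genes had reads in vehicle organoids, so the lists give no measure of silencing. Of 12 germline genes in the table, only Tdrd1 reached the filter (112 to 90.8, log2 difference -0.29, limma adjusted p = 0.14), and Hormad1 and Slc25a31 had 0 reads in every library. Their summed level was 6.14 to 8.05 RPM in vehicle and 5.41 to 5.71 in 4-OHT libraries. Most of it was Tdrd1, with 140 of 164, 151 of 183 and 81 of 97 reads in vehicle replicates 1, 2 and 3. In 4-OHT replicates 1, 2 and 3 it held 89 of 110, 84 of 106 and 82 of 97 reads, so the sum mainly restates Tdrd1. Among 12 tested imprinted genes, Cdkn1c rose from 88.4 to 176 (1.03, SE 0.18, limma adjusted p = 9.8e-05), Grb10 fell from 713 to 348 (-1.04, SE 0.10) and Igf2r fell from 3762 to 3000 (-0.33), although reads of Igf2r and its antisense gene Airn may not have been told apart. The other 9 did not pass, and 2 were higher without vehicle replicate 1 or without 4-OHT replicate 1. Of 8 tested developmental regulators, the cell cycle inhibitors Cdkn2b (1609 to 2424, log2 difference 0.59) and Cdkn2a (408 to 495, log2 difference 0.28) rose and Hoxa9 fell (1327 to 967, log2 difference -0.45). Without vehicle replicate 2, without 4-OHT replicate 3 or in 4-OHT replicate 1 alone, 1 of the 8 was higher. Over all tested genes 22.7% were higher and 21.0% lower. The counts of 1 higher and 2 lower among 12 imprinted genes, and 2 higher and 1 lower among 8 developmental regulators, are near or below these shares. DNA methylation and histone marks were not measured in these libraries.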
